A study of Mus musculus with 7 samples.

Results

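Cyclic nucleotide phosphodiesterases are the enzymes that break down cAMP and cGMP, and 10 genes of this family that are known from the heart were followed here: Pde1a, Pde1c, Pde2a, Pde3a, Pde3b, Pde4a, Pde4b, Pde4d, Pde5a and Pde7a. They were listed by name with earlier results of these data known, their values set no rule of choice, and they are 10 of the 18193 genes and 34 of the 45037 probe sets that could be examined. Every other phosphodiesterase of the list described further on is treated with the rest of the pathway. Expression was measured on Affymetrix mouse genome arrays, 1 array per whole heart, in 7 male mice at 7 months of age. All 7 were mdx mice, which lack dystrophin and serve as a model of Duchenne muscular dystrophy. In 4 of them (mdx HRTΔIKKβ), IKKβ, an activating kinase of NF-κB, was deleted by Cre recombinase from the Myh6 promoter. The other 3 (mdx IKKβf/f) had floxed IKKβ and no Cre in their labels, and the study calls them littermates. The Myh6 promoter acts in cardiomyocytes, while the RNA came from all cells of the heart. No heart with Cre and intact IKKβ and no heart without the mdx mutation was analysed here, so that an effect of Cre itself cannot be told apart from the deletion. Hearts are named below by their group and replicate number, as in HRTΔIKKβ heart 1 or f/f heart 1.

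In heart muscle, noradrenaline and adrenaline act on β-adrenergic receptors, which stimulate adenylyl cyclase to make cAMP, and cAMP activates protein kinase A (PKA). PKA phosphorylates the L-type calcium channel, the ryanodine receptor and phospholamban, and so strengthens each beat. Nitric oxide and natriuretic peptides raise cGMP in the same cells. Phosphodiesterases end both signals, and because different members sit at different membranes and channels, they also keep the signals local. Members differ in which nucleotide they cleave and in what regulates them: the PDE1 enzymes are switched on by calcium and calmodulin, PDE2 is stimulated by cGMP, PDE3 is inhibited by it, PDE4 and PDE7 cleave cAMP alone, and PDE5 cleaves cGMP alone.

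Each value is a log2 signal after RMA (robust multi-array average), so that 1 unit is a doubling of signal. Differences are given as mdx HRTΔIKKβ minus mdx IKKβf/f on the log2 scale, and the error after ± is limma's standard error unless it is marked SD. Levels of different probe sets cannot be set against each other, because each probe set has its own brightness. Array medians lay between 6.73 and 6.75. Ikbkb, which encodes IKKβ, differed by -0.18 ± 0.11 in the brightest of its 5 probe sets (limma, adjusted p = 0.801). Its other probe sets differed by between -0.08 and 0.02. The sources used here do not give whether a probe set lies in the deleted part. By quantitative PCR, the study reports reduced Ikbkb expression in mdx HRTΔIKKβ hearts. The 6 cardiomyocyte markers were among the brightest genes in every heart. All but Ryr2 (13.19 to 13.42) lay near the top of the scale (highest value 15.1), where signal can saturate. The score of all 6 (the mean of the marker genes after each was set to 0 on average) lay between -0.03 and 0.03. For signal mostly this high, that says little about the share of cardiomyocytes. A few hearts stood apart in the markers of other tissues: f/f heart 1 in skeletal muscle (score 3.72) and neutrophil (2.38) genes, HRTΔIKKβ heart 2 in airway (3.32) and neutrophil (3.01) genes, and f/f heart 2 in atrial genes (-2.37). Results that rest on HRTΔIKKβ heart 2 or f/f heart 1 are also given without both.

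The promoters of 7 of the 10 genes were found among the RefSeq gene starts of the GRCm38.p6 build, as 21 windows from 250 bases before to 50 bases after a start. Pde3a, Pde3b and Pde7a had none in that table. Because IKKβ acts through NF-κB and these enzymes act on cAMP, the windows were searched on both strands for the κB consensus, to which NF-κB binds, for the cAMP response element TGACGTCA, and for its core TGACG, which every full element also holds. The κB consensus was in 2 of the 21 windows (9.52%) and in 4.51% of all 32851 windows. The core was in 4 of 21 (19.0%) against 20.8% of all windows, and the full element in 0 of 21 against 1.79%. The 60 bases around each κB match and around the cores that lie before a start are shown 5′ to 3′ along the gene, with the match in capitals. The cores read CGTCA here because they match on the other strand.
Pde1c κB (chr6:56362555-56362614, minus strand): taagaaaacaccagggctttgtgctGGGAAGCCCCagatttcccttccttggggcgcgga
Pde4b κB (chr4:102569907-102569966, plus strand): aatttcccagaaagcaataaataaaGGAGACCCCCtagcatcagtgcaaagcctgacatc
Pde1a core (chr2:80039034-80039093, minus strand): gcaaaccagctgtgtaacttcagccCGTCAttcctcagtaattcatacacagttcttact
Pde4a core (chr9:21184026-21184085, plus strand): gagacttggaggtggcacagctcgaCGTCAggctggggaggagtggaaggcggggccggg
Pde4b core (chr4:102421495-102421554, plus strand): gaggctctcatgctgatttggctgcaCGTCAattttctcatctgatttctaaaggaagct
The matches lie 197 (Pde1c) and 128 (Pde4b) bases before a start for the κB consensus, and 166 (Pde1a), 50 (Pde4a) and 34 (Pde4b) bases before a start for the core. The 2 matches of Pde4b belong to different starts of the gene. A match describes the letters of the window, and no binding was measured in these hearts.

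Over the family, the differences between the genotypes were small. The 34 probe sets differed by between -0.29 and 0.31, 18 of them higher and 16 lower in mdx HRTΔIKKβ hearts (26 higher without HRTΔIKKβ heart 2 and f/f heart 1, and 15 higher with arrays centred on the 75th percentile), and their median difference was 0.01, against -0.01 over all probe sets. The median absolute difference was 0.0993 for the family and 0.0667 for all probe sets. After Benjamini-Hochberg adjustment, limma called 0 of the 34 (adjusted p between 0.79 and 0.998) and 0% of all 45037 probe sets, and the methods' unpaired test also called 0. At an unadjusted p of 0.05, limma called 4 of the 34 (11.8%), against 6.07% of all probe sets. The methods' unpaired test called 1 of the 34, against 4.63% of all probe sets. Of limma's 4, 3 were higher (3.31% of all probe sets were called higher) and 1 was lower (2.76% of all). The 3 were probe sets of Pde1a, Pde3a and Pde4b, and the lower was a dim probe set of Pde4d. The count was 1 without f/f heart 3 (5.97% of all probe sets), 2 without HRTΔIKKβ heart 1 (5.66%), 2 without f/f heart 2 (4.77%) and 3 with HRTΔIKKβ heart 2 and f/f heart 1 both left out (3.87%). The groups did not overlap in 4 of the 34 (11.8%), 3 higher and 1 lower, against 5.44% of all probe sets. That count was 7 without f/f heart 1 and 8 without both hearts, where the share over all probe sets rose as well, to 12.3% and 15.5%. No member reached 1.5-fold, which 465 probe sets did overall. For 24 of the 34 (70.6%) the 95% interval of the difference lay inside 1.5-fold in either direction, as it did for 92.2% of all probe sets. Of the other 10 probe sets, 7 belong to Pde7a.

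**Figure D1:**
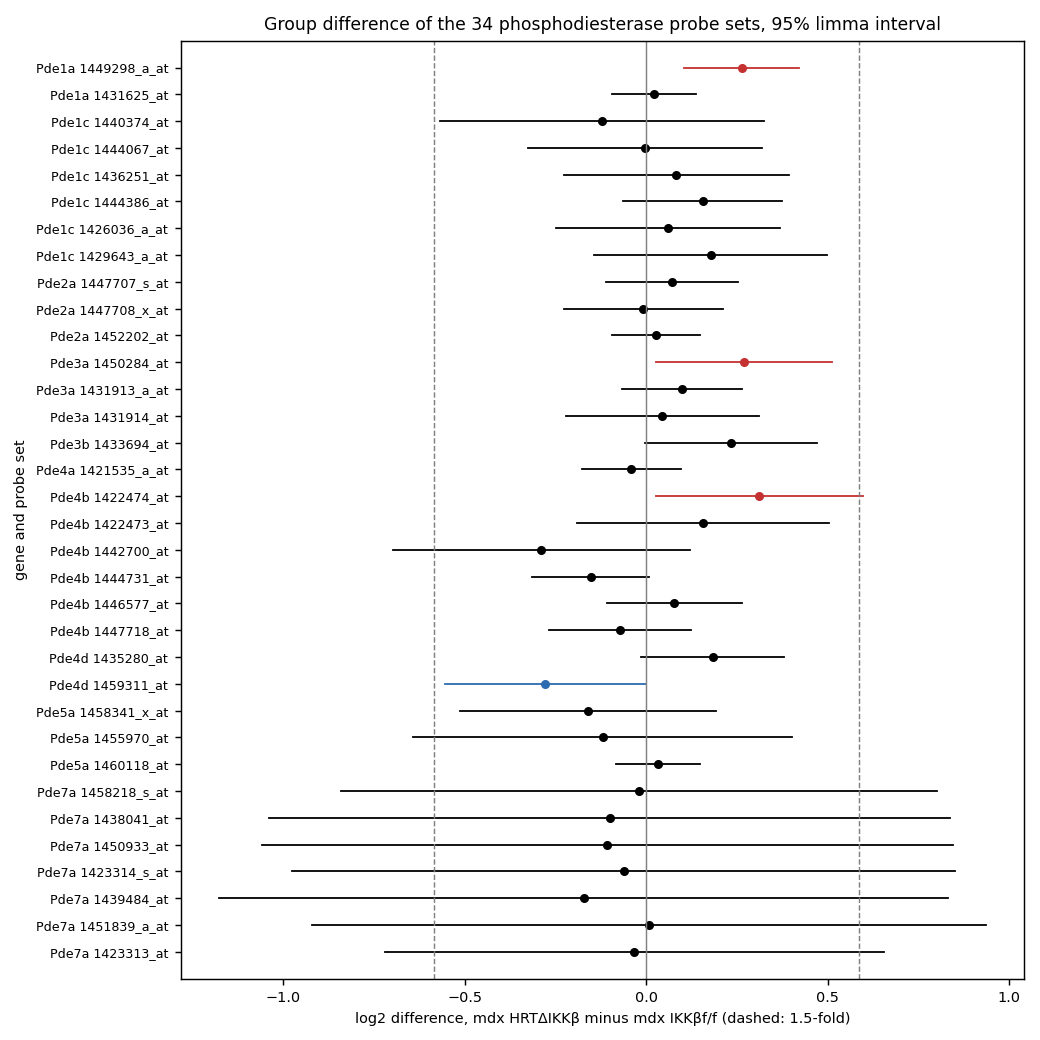
Group difference on the log2 scale (x axis, mdx HRTΔIKKβ minus mdx IKKβf/f) with its 95% limma interval for each of the 34 phosphodiesterase probe sets (y axis, ordered by gene and from the brightest down). Red and blue mark an unadjusted p under 0.05, higher or lower, and dashed lines mark 1.5-fold; no point lies past them, and the 7 intervals of Pde7a are the widest of the plot.

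Represented by its brightest probe set, the mean of 6 of the 10 genes (60%) was higher in mdx HRTΔIKKβ hearts and that of 4 was lower, where 47.7% of all genes were higher. The 6 were Pde1a, Pde2a, Pde3a, Pde3b, Pde4b and Pde4d. With the arrays centred on their 75th percentile the count was again 6, and with both doubted hearts left out it was 7.

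**Figure D2:**
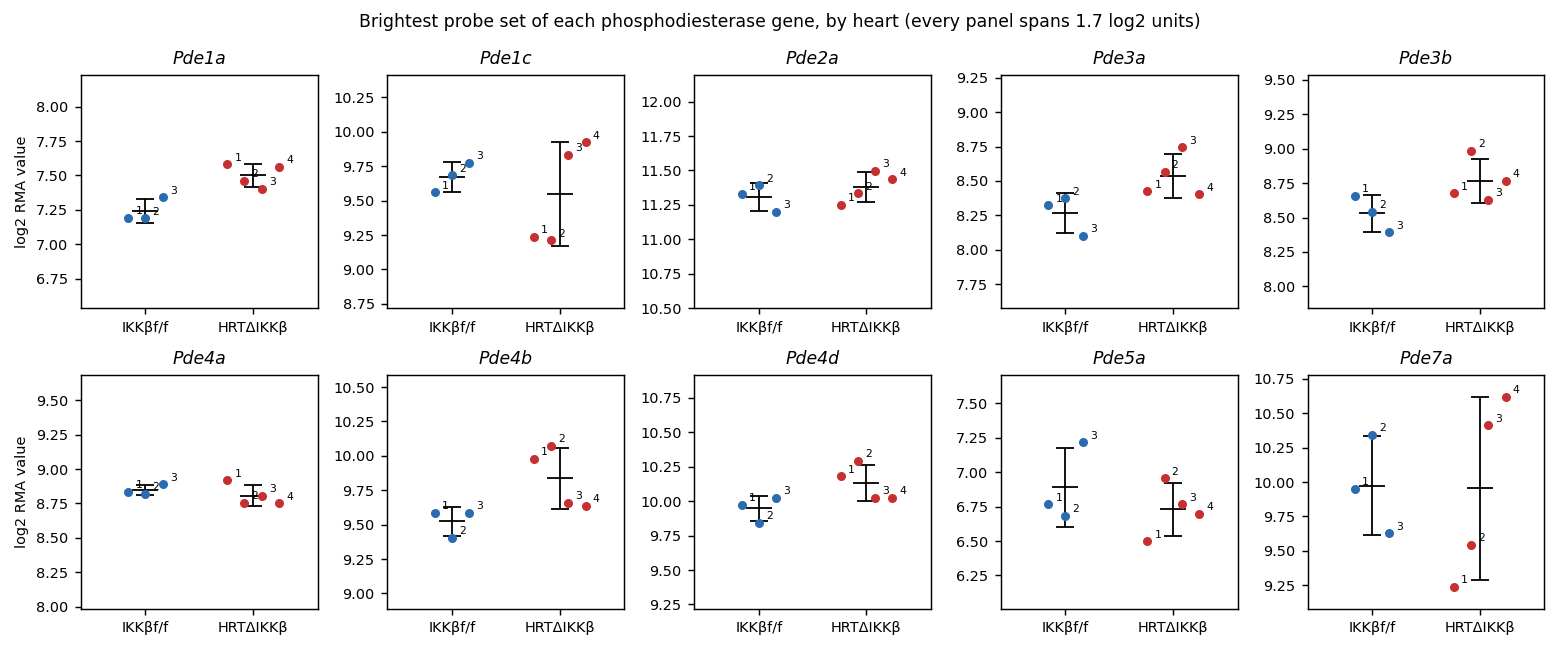
Log2 RMA value (y axis, 1.7 log2 units in every panel) of the brightest probe set of each of the 10 genes in the 3 mdx IKKβf/f hearts (blue) and the 4 mdx HRTΔIKKβ hearts (red), each point labelled with its replicate number; black bars are the mean ± SD. The groups are apart for Pde1a, Pde3a and Pde4b, and the points of Pde7a and of Pde1c in mdx HRTΔIKKβ hearts spread the most.

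Among the calcium-regulated enzymes, Pde1a, which prefers cGMP, had the smallest p of the family. Its brightest probe set (1449298_a_at) read 7.58, 7.46, 7.41 and 7.56 in HRTΔIKKβ hearts 1 to 4 and 7.19, 7.19 and 7.34 in f/f hearts 1 to 3. Every HRTΔIKKβ heart was above every f/f heart, with HRTΔIKKβ heart 3 and f/f heart 3 closest to each other. The means were 7.50 ± 0.08 (SD, n = 4) and 7.24 ± 0.09 (SD, n = 3), a difference of 0.26 ± 0.07 (1.20-fold, 95% interval 0.10 to 0.42, limma adjusted p = 0.79). It was the only member at an unadjusted p under 0.05 with each heart left out in turn, where the difference ran from 0.24 to 0.31, and it stood at 0.25, still at an unadjusted p under 0.05, with both doubted hearts left out. In bulk tissue, more cells of a type and more RNA per cell cannot be told apart, here or for any gene below. The fibroblast marker score, given because Pde1a is also expressed outside cardiomyocytes, lay between -0.23 and 0.16 in mdx HRTΔIKKβ hearts and between -0.27 and 0.15 in mdx IKKβf/f hearts, with 5 of 6 markers at a higher mean in the former; its part in the difference was not tested. The second Pde1a probe set was dim, with a mean of 4.49 and a difference of 0.02 ± 0.05.

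Pde1c cleaves cAMP and cGMP about equally and is the main PDE1 enzyme of human heart muscle. Its 6 probe sets differed by between -0.12 and 0.18, 4 higher and 2 lower, and none was at an unadjusted p under 0.05 (limma adjusted p between 0.801 and 0.997). In the brightest (1440374_at), HRTΔIKKβ hearts 1 to 4 read 9.24, 9.21, 9.83 and 9.92 and f/f hearts 1 to 3 read 9.56, 9.68 and 9.78. HRTΔIKKβ hearts 1 and 2 lay below all f/f hearts and hearts 3 and 4 above them, so that the group means of 9.55 ± 0.38 (SD, n = 4) and 9.67 ± 0.11 (SD, n = 3) differed by only -0.12 ± 0.19 (95% interval -0.57 to 0.32). Hearts 1 and 2 were below hearts 3 and 4 in all 6 probe sets of Pde1c. The 7 hearts covered from 0.39 to 0.59 in the other 5 probe sets. Without HRTΔIKKβ heart 2, 2 of them (1429643_a_at and 1444386_at) reached an unadjusted p under 0.05, with differences of 0.28 and 0.22, and they did so in no other setting tried.

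Pde2a, through which cGMP lowers cAMP, was measured by 3 probe sets, none of which differed by more than 0.07. Its brightest probe set (1447707_s_at) read 11.25, 11.33, 11.50 and 11.44 in HRTΔIKKβ hearts 1 to 4 and 11.33, 11.39 and 11.20 in f/f hearts 1 to 3. The groups overlapped, and the difference of 0.07 ± 0.08 had a 95% interval from -0.11 to 0.25. The other 2 probe sets differed by -0.01 ± 0.09 and 0.03 ± 0.05. As for Pde1c, HRTΔIKKβ hearts 1 and 2 were below hearts 3 and 4 in all 3 probe sets, though over ranges of no more than 0.33.

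Both PDE3 genes were higher on average in mdx HRTΔIKKβ hearts. Pde3a encodes the main PDE3 enzyme of heart muscle, at the sarcoplasmic reticulum, and is the target of milrinone. Its brightest probe set (1450284_at) read 8.43, 8.57, 8.75 and 8.40 in HRTΔIKKβ hearts 1 to 4 and 8.32, 8.37 and 8.10 in f/f hearts 1 to 3. The groups did not overlap, but HRTΔIKKβ heart 4 and f/f heart 2 were close to each other. The difference was 0.27 ± 0.10 (1.21-fold, 95% interval 0.03 to 0.51, limma adjusted p = 0.796). It stood at 0.19 without f/f heart 3, the lowest, and at 0.29 with both doubted hearts left out, in neither case at an unadjusted p under 0.05. The other 2 probe sets of Pde3a differed by 0.10 ± 0.07 and 0.04 ± 0.11, and their groups overlapped.

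Pde3b is known from fat cells, where insulin acts through it to restrain the breakdown of fat, and in the heart it binds the PI3Kγ complex. Its single probe set (1433694_at) read 8.68, 8.99, 8.63 and 8.77 in HRTΔIKKβ hearts 1 to 4 and 8.66, 8.54 and 8.39 in f/f hearts 1 to 3. HRTΔIKKβ heart 3 lay just under f/f heart 1, and the other HRTΔIKKβ hearts were above all f/f hearts. The difference was 0.23 ± 0.10 (95% interval -0.004 to 0.47, limma adjusted p = 0.796). Among the 3 measured adipocyte markers, all were higher on average in mdx HRTΔIKKβ hearts, and their score was highest in HRTΔIKKβ heart 2 (1.02) and lowest in f/f hearts 2 (-0.93) and 3 (-0.65), the hearts in which Pde3b was also highest and lowest. The differences of the 3 markers were uneven: 2.20 for Adipoq, 0.19 for Lep and 0.02 for Fabp4. Over the groups the score ran from -0.04 to 1.02 in mdx HRTΔIKKβ and from -0.93 to 0.20 in mdx IKKβf/f hearts. HRTΔIKKβ heart 4 was above f/f heart 1 for Pde3b, but its score (-0.04) was below that of f/f heart 1 (0.20). Its part in the difference was not tested. The difference was 0.16 without HRTΔIKKβ heart 2 and also without f/f heart 3. It was 0.28 without HRTΔIKKβ heart 3, 0.30 without f/f heart 1 and 0.22 with both doubted hearts left out, and in these 3 settings it was at an unadjusted p under 0.05.

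The PDE4 enzymes cleave much of the cAMP in mouse heart cells. Pde4a was nearly level over the 7 hearts. Its probe set (1421535_a_at) read 8.92, 8.76, 8.81 and 8.75 in HRTΔIKKβ hearts 1 to 4 and 8.84, 8.82 and 8.89 in f/f hearts 1 to 3. All 7 hearts lay within 0.17 of each other. The difference of -0.04 ± 0.06 had a 95% interval from -0.18 to 0.10, so that a difference of 1.5-fold in either direction lay outside it.

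Pde4b encodes an enzyme found with the L-type calcium channel in heart muscle and, in macrophages, one that is needed for the full TNF response. Its brightest probe set had the largest difference of the family, but its 6 probe sets were divided, with 3 higher and 3 lower and a mean difference of 0.005. The brightest (1422474_at) read 9.98, 10.07, 9.66 and 9.64 in HRTΔIKKβ hearts 1 to 4 and 9.59, 9.40 and 9.59 in f/f hearts 1 to 3. HRTΔIKKβ hearts 1 and 2 stood well above the rest, and hearts 3 and 4 barely above the highest f/f hearts. The means of 9.84 ± 0.22 (SD, n = 4) and 9.53 ± 0.10 (SD, n = 3) differed by 0.31 ± 0.12 (1.24-fold, 95% interval 0.03 to 0.60, limma adjusted p = 0.796). A second probe set (1422473_at) also had its highest values in HRTΔIKKβ hearts 1 (9.01) and 2 (9.06), but heart 4 (8.44) was the lowest of all 7, and its difference was 0.16 ± 0.15. Without HRTΔIKKβ heart 2 the difference of the brightest probe set was 0.23, and without both doubted hearts 0.26, in neither case at an unadjusted p under 0.05. The same held without HRTΔIKKβ heart 1 (0.26) and without any single f/f heart (0.25 to 0.34).

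The other 4 probe sets of Pde4b did not follow the brightest. Probe set 1444731_at read 6.86, 6.81, 6.76 and 6.82 in HRTΔIKKβ hearts 1 to 4, all below the 6.88, 7.11 and 6.91 of f/f hearts 1 to 3, a difference of -0.15 ± 0.07 (limma adjusted p = 0.796). In 1442700_at, the difference was -0.29 ± 0.18 (adjusted p = 0.803), with values from 7.91 to 8.53 in mdx HRTΔIKKβ and from 8.18 to 8.75 in mdx IKKβf/f hearts. The remaining 2 (1446577_at and 1447718_at) had means under 5, near the bottom of the scale, and differed by 0.08 ± 0.08 and -0.07 ± 0.08. The sources used here do not give where on the gene each probe set lies, so that the division cannot be tied to transcript forms. Leukocyte markers, given because of the expression of Pde4b in these cells, were uneven over the hearts. The macrophage score ran from -0.08 to 0.28 in mdx HRTΔIKKβ and from -0.28 to -0.11 in mdx IKKβf/f hearts, with all 6 measured markers at a higher mean in the former. The lymphocyte score ran from 0.31 to 1.35 against -1.39 to -0.13, and all 5 measured markers were again higher on average in mdx HRTΔIKKβ hearts. The neutrophil score was 3.01 in HRTΔIKKβ heart 2 but -0.70 in HRTΔIKKβ heart 1, which read nearly as high for Pde4b. The part of these cells in the difference was not tested.

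**Figure D3:**
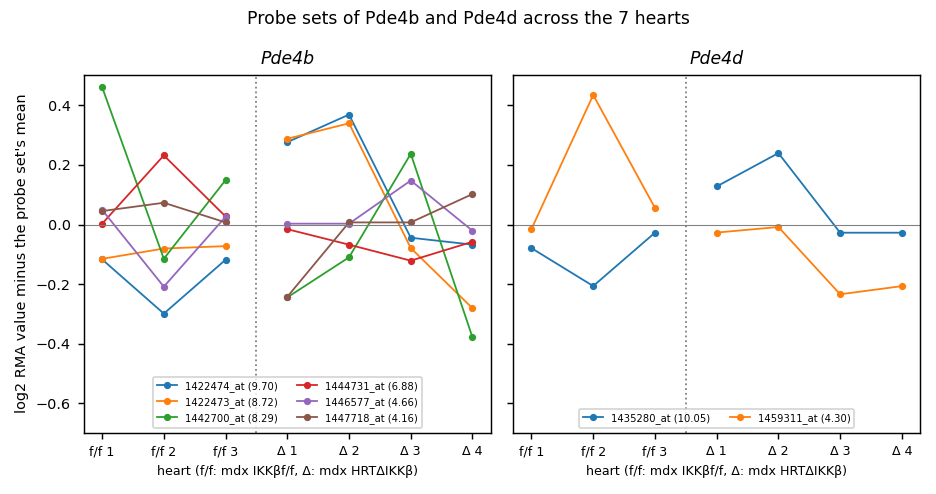
Log2 RMA value minus the mean of each probe set over the 7 hearts (y axis) for the 6 probe sets of Pde4b and the 2 of Pde4d in each heart (x axis); lines join the values of a probe set within a group and stand for no order, and the legend gives each mean. The brightest probe set of either gene is highest in HRTΔIKKβ hearts 1 and 2, while 1 further probe set of Pde4b shares that and the others follow other courses.

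Pde4d encodes the PDE4 enzyme that is found with β-adrenergic receptors and with the ryanodine receptor, the calcium release channel. The bright probe set (1435280_at) read 10.18, 10.29, 10.02 and 10.02 in HRTΔIKKβ hearts 1 to 4 and 9.97, 9.85 and 10.02 in f/f hearts 1 to 3. As for Pde4b, HRTΔIKKβ hearts 1 and 2 were the highest, and hearts 3 and 4 were level with f/f heart 3. The difference was 0.18 ± 0.08 (1.13-fold, 95% interval -0.01 to 0.38, limma adjusted p = 0.796). The second probe set (1459311_at) was dim, with a mean of 4.30, and ran the other way: -0.28 ± 0.12 (limma adjusted p = 0.796). Its values were 4.27, 4.29, 4.06 and 4.09 in HRTΔIKKβ hearts 1 to 4 and 4.28, 4.73 and 4.35 in f/f hearts 1 to 3, which overlapped. It was -0.14 without f/f heart 2, -0.36 without f/f heart 1 and -0.40 with both doubted hearts left out, and in the last 2 settings it was at an unadjusted p under 0.05. The bright probe set differed by 0.14 with both doubted hearts left out.

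Pde5a, the cGMP-specific enzyme that sildenafil inhibits, is best known from vascular smooth muscle. Its brightest probe set (1458341_x_at) read 6.50, 6.96, 6.77 and 6.70 in HRTΔIKKβ hearts 1 to 4 and 6.77, 6.68 and 7.22 in f/f hearts 1 to 3. The groups overlapped, and f/f heart 3 was the highest of all 7. The difference was -0.16 ± 0.15 (95% interval -0.51 to 0.19, limma adjusted p = 0.843). A second probe set (1455970_at) had the same order of hearts, from 5.14 in HRTΔIKKβ heart 1 to 6.08 in f/f heart 3, and differed by -0.12 ± 0.22. The smooth muscle and pericyte score was 0.998 in f/f heart 3 and between -0.40 and 0.01 in the other 6 hearts, and its part in these values was not tested. Without f/f heart 3, the differences of these 2 probe sets were 0.005 and 0.09. The third probe set (1460118_at) varied little and differed by 0.03 ± 0.05.

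Pde7a, a high-affinity cAMP enzyme that the PDE4 inhibitor rolipram does not block, varied most from heart to heart. In the brightest of its 7 probe sets (1458218_s_at), HRTΔIKKβ hearts 1 to 4 read 9.24, 9.54, 10.41 and 10.62 and f/f hearts 1 to 3 read 9.95, 10.34 and 9.63. HRTΔIKKβ hearts 1 and 2 were the lowest of all 7 and hearts 3 and 4 the highest, with the f/f hearts between them. The group means of 9.95 ± 0.67 (SD, n = 4) and 9.97 ± 0.36 (SD, n = 3) were nearly the same, and the difference of -0.02 ± 0.35 had a 95% interval from -0.84 to 0.80. The precision of these arrays therefore did not allow a 1.5-fold difference of Pde7a to be told from none. The other 6 probe sets differed by between -0.17 and 0.01 with standard errors from 0.30 to 0.43.

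The spread of Pde7a was shared by all of its probe sets. Among the 4 mdx HRTΔIKKβ hearts their values covered from 1.18 to 1.81 log2 units, and HRTΔIKKβ hearts 1 and 2 were below hearts 3 and 4 in 7 of 7. The order of all 7 hearts was identical in 5 of the 7 probe sets. Their SD within groups ranked between the 98.2 and the 99.3 percentile of all 45037 probe sets. Of 11 lists of cell markers, 1 also had HRTΔIKKβ hearts 1 and 2 below hearts 3 and 4, and 0 had all f/f hearts between them. That 1 was the atrial list, with scores of -0.24 and 0.48 against 0.80 and 1.01. Several lists had the opposite order, with HRTΔIKKβ hearts 1 and 2 above hearts 3 and 4. They were the cardiomyocyte, skeletal muscle, endothelial, smooth muscle and pericyte, fibroblast, neutrophil and adipocyte lists. In the endothelial list the scores were 0.03 and 0.18 against -0.09 and -0.14. In the adipocyte list they were 0.41 and 1.02 against -0.02 and -0.04. The part of these cell types in the spread of Pde7a was not tested. The atrial score was lowest in f/f heart 2 (-2.37), in which Pde7a was the highest of the f/f hearts.

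**Figure D4:**
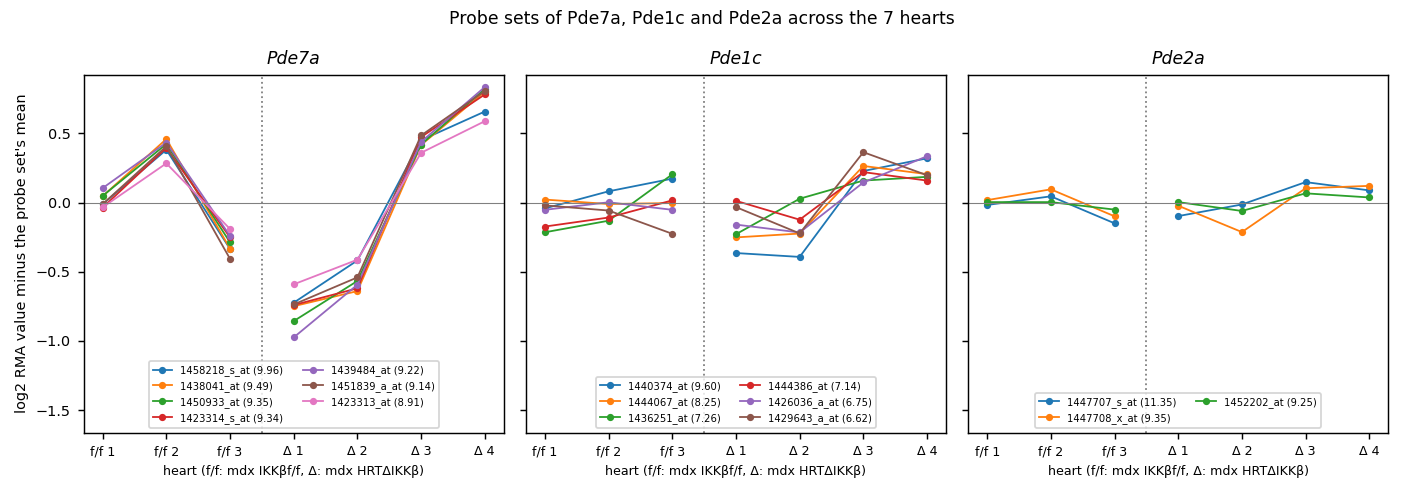
Log2 RMA value minus the mean of each probe set over the 7 hearts (y axis) for the 7 probe sets of Pde7a, the 6 of Pde1c and the 3 of Pde2a in each heart (x axis); lines join the values of a probe set within a group and stand for no order. HRTΔIKKβ hearts 1 and 2 lie below hearts 3 and 4 in every probe set shown, over 1.18 to 1.81 log2 units for Pde7a and no more than 0.33 for Pde2a.

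For each gene, the genes whose brightest probe sets followed it most closely over the 7 hearts were found by Pearson's r among 18191 genes, as a description over 7 points that share their arrays. For Pde1a they were Pkhd1l1 (r = 0.983) and Serpinh1 (0.972), the collagen chaperone gene. Pde1c was followed by Fam229b (0.989) and Asb10 (0.979), and Pde2a by Rnf2 (0.964) and Cln3 (0.960). Those of Pde3a were Supt7l (0.985) and Insm2 (0.977), and those of Pde3b were Mgst2 (0.988) and Ola1 (0.966). Pde4a was closest to Vxn (0.971) and Vps37d (0.968), Pde4b to Bst1 (0.995) and Rpl11 (0.993), and Pde4d to Shisa5 (0.996) and Arhgap1 (0.992). Pde5a was closest to Usp45 (0.986) and Brd3 (0.984). For Pde7a, they were Tmem140 (0.973) and Cdkal1 (0.972). Each pair holds the 2 highest of 18191 values over only 7 hearts.

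The rest of the pathway was described with a list of 123 genes of cAMP and cGMP signalling, of which 104 were on the array, each by its brightest probe set. Of these, 47 were higher and 57 lower on average in mdx HRTΔIKKβ hearts, with a median difference of -0.01, and none passed at an adjusted p of 0.05. At an unadjusted p of 0.05, limma called 3 higher (2.88%, against 3.25% of all genes) and 6 lower (5.77%, against 2.95% of all genes). The 9 genes became 4 with HRTΔIKKβ heart 2 and f/f heart 1 both left out, of which 2 (Crem and Akap5) were among the 9. The share over all genes fell as well, from 6.2% to 3.63%. All 9 kept the sign of their difference with each heart left out in turn and with either centring of the arrays.

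The cAMP response gene Crem, which encodes activators and the inducible repressor ICER, had the smallest p of the list. It read 8.50, 8.65, 8.11 and 8.34 in HRTΔIKKβ hearts 1 to 4 and 7.79, 7.83 and 7.94 in f/f hearts 1 to 3. Every HRTΔIKKβ heart was above every f/f heart. The difference was 0.55 ± 0.12 (limma adjusted p = 0.789), it ran from 0.47 to 0.65 with each heart left out, and its other 3 probe sets had smaller differences of the same sign, between 0.0075 and 0.25. Crem was also at an unadjusted p under 0.05 in every setting tried.

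Pkia encodes an inhibitor of the catalytic subunit of PKA. It read 11.00, 10.90, 11.39 and 10.99 in HRTΔIKKβ hearts 1 to 4 and 11.47, 11.38 and 11.56 in f/f hearts 1 to 3. All but HRTΔIKKβ heart 3 were below the f/f hearts, and the difference was -0.40 ± 0.12 (limma adjusted p = 0.796). Gnai3, the α subunit of an inhibitory G protein, differed by 0.24 ± 0.08, with no overlap between the groups. Its adjusted p and those of the genes that follow were all 0.796. Nos1 and Akap4 had other probe sets of the opposite sign (up to 0.18 and 0.0063), while the other probe sets of the rest, where there were any, had the same sign. The anchoring protein genes, whose products hold PKA and often phosphodiesterases at their sites, were divided. Akap2 was higher by 0.25 ± 0.10, while Akap5 (-0.20 ± 0.07) and Akap4 (-0.19 ± 0.06), best known from sperm, were lower. Lower as well were Pik3r6, which encodes the PI3Kγ subunit that binds Pde3b (-0.22 ± 0.08), Nos1, the neuronal nitric oxide synthase (-0.20 ± 0.08), and the pacemaker channel gene Hcn2 (-0.18 ± 0.08). With both doubted hearts left out, Pik3r6 stood at -0.11, Nos1 at -0.08 and Hcn2 at -0.10.

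**Figure D5:**
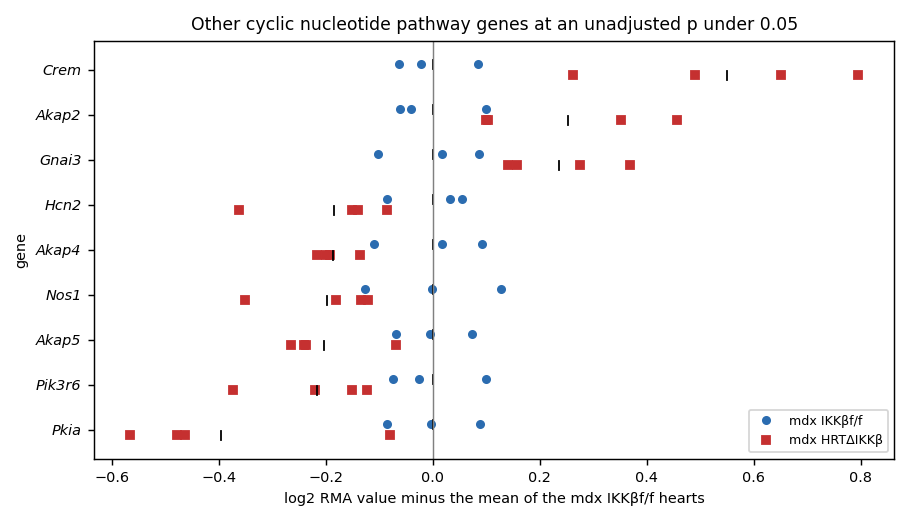
Log2 RMA value minus the mean of the mdx IKKβf/f hearts (x axis) for the 9 other pathway genes at an unadjusted p under 0.05 (y axis), with each mdx IKKβf/f heart as a circle, each mdx HRTΔIKKβ heart as a square and group means as black ticks. Crem, Akap2 and Gnai3 lie to the right and the other 6 genes to the left, and the mean of Crem is the farthest to the right.

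In the remaining groups no gene reached an unadjusted p of 0.05 in limma, and the genes named had adjusted p between 0.796 and 0.816. Of 13 other phosphodiesterases that the array holds, 7 had a higher and 6 a lower mean, and the smallest p was that of Pde7b (-0.23 ± 0.17), the close relative of Pde7a. Its values, from 9.79 in HRTΔIKKβ hearts 1 and 2 to 10.36 in heart 4 and 10.50 in f/f heart 3, overlapped between the groups. For 13 receptors that raise cAMP or cGMP the smallest p was that of Ramp1, a partner of the calcitonin receptor-like receptor (-0.38 ± 0.25). The difference of Ramp1 was -0.11 without f/f heart 1 and -0.03 with both doubted hearts left out. Among 10 adenylyl cyclases the smallest p was that of Adcy9 (-0.14). For 12 PKA substrates and phosphatase genes it was that of Mybpc3, cardiac myosin binding protein C (-0.10). For the transporters it was that of the nucleotide exporter gene Abcc5 (0.10). The largest difference of the list, named after its values were seen, was that of Prkar2b, a regulatory subunit of PKA that fat cells express strongly (1.17 ± 0.59). It was lowest in f/f hearts 2 (4.64) and 3 (5.41) and highest in HRTΔIKKβ heart 2 (7.99), which were also the extremes of the adipocyte score, while the hearts between them were ordered differently. The part of the adipocyte markers was not tested. Without f/f heart 1 the difference was 1.80, without f/f heart 2 it was 0.66, and with both doubted hearts left out it was 1.41, in the first and last of these settings at an unadjusted p under 0.05.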

How the data were processed

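Total RNA from 7 whole mdx hearts (4 mdx HRTΔIKKβ, 3 mdx IKKβf/f) was extracted with Trizol, purified with RNeasy and hybridized as biotinylated cRNA, 1 heart per array. The authors deposited log2 values computed by RMA (background correction, quantile normalization between arrays, 1 summary per probe set). The submitters' processing notes name Partek and Affymetrix Expression Console, and the sources used here do not give which program and version made the table. RMA makes differences of dim probe sets smaller, and after quantile normalization a shift of all RNA together cannot be seen.

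A limma fit (version 3.58.1, lmFit and eBayes, R 4.3.3) of all 45037 probe sets, dim ones included, gave two-sided p-values, adjusted over all of them by the Benjamini-Hochberg method. The number of arrays limits the precision. The 10 genes, the pathway list and the marker lists were chosen with earlier results of these data known. Genes were named through the platform annotation (34945 probe sets with 1 symbol, 932 with several, 9160 with none, the last 2 kinds unused), and 0 symbols changed through Entrez IDs. A gene was represented by its probe set with the highest mean over the 7 hearts. Named were all 10 genes, each pathway gene at an unadjusted p under 0.05 and the smallest p of each role, the 2 closest genes by correlation, and the markers. Alternatives were other centrings, a filter on means under 5, a trended and robust variance, and the unpaired Student test of the study's general statistics. Further alternatives were each heart left out and the replicate number as a block. Chosen after seeing the data was the fit with HRTΔIKKβ heart 2 and f/f heart 1 both left out.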

Additional observations from a re-analysis of the deposited data

Results flagged for a closer look

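In 2 of the 34 probe sets, 1 of the 4 mdx HRTΔIKKβ hearts lay far from the other 3, and chance flags about 1 in 20 groups of 4. Both were values of HRTΔIKKβ heart 3. For the dim Pde4b probe set 1446577_at it read 4.81, where the next heart read 4.66, and the gap was 0.858 of the group's range. For the Pde5a probe set 1460118_at it read 5.33, where the next heart read 5.23, and the gap was 0.920 of the range.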

How the results depend on the processing

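The number of the 34 probe sets at an adjusted p under 0.05 was 0 in every setting. At an unadjusted p under 0.05, 4 became 1 to 5 with single hearts left out and 1 with the unpaired Student test. The share over all probe sets went from 6.07% to between 4.48% and 7.46% with single hearts left out and to 4.63% with that test. Non-overlapping groups went from 4 to 4 to 7 with single hearts left out and to 8 without HRTΔIKKβ heart 2 and f/f heart 1, while the share over all probe sets went from 5.44% to between 7.41% and 15.5%. Without both hearts the 9 other pathway genes became 4 (6 to 12 with single hearts left out). The share over all genes went from 6.2% to 3.63% (4.3% to 8.14% with single hearts left out). The sign of the difference was kept in all 11 settings in 17 probe sets and turned at least once in the other 17, listed below. The causes of these changes were not tested.

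With the replicate number as a block, 2 probe sets of the family were at an unadjusted p under 0.05. The share over all probe sets was 4.87% with the block and 6.07% without it. The labels do not pair the hearts, and the deviations of same-numbered hearts correlated at -0.0751, -0.377 and -0.0362. In the fit with the replicate block the difference of Pde1c 1426036_a_at was -0.0425 and that of Pde7a 1451839_a_at -0.26.

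Signs turned as follows. With arrays centred on the 75th percentile, Pde1a 1431625_at stood at -0.0075, Pde2a 1452202_at at -0.0026 and Pde7a 1451839_a_at at -0.0217. Without both doubted hearts, Pde1c 1444067_at stood at 0.0797, Pde2a 1447708_x_at at 0.0688, and the Pde7a probe sets 1458218_s_at at 0.11, 1438041_at at 0.0931, 1450933_at at 0.0601, 1423314_s_at at 0.10, 1439484_at at 0.0037 and 1423313_at at 0.0728. The mean over all probe sets of a gene was 0.0583 for Pde1c and -0.0475 for Pde4d, and 0.005 for Pde4b. With single hearts left out, the range was -0.009 to 0.0382 for Pde1a 1431625_at, -0.0425 to 0.14 for Pde1c 1426036_a_at, -0.0005 to 0.21 for 1436251_at and -0.0926 to 0.0794 for 1444067_at, -0.0597 to 0.0623 for Pde2a 1447708_x_at, -0.0505 to 0.11 for Pde3a 1431914_at, -0.0047 to 0.12 for Pde4b 1446577_at, and -0.28 to 0.0918 for Pde5a 1455970_at and -0.26 to 0.0047 for 1458341_x_at. For Pde7a it was -0.23 to 0.16 for 1423313_at, -0.33 to 0.18 for 1423314_s_at, -0.38 to 0.14 for 1438041_at, -0.48 to 0.13 for 1439484_at, -0.40 to 0.16 for 1450933_at, -0.26 to 0.25 for 1451839_a_at and -0.24 to 0.22 for 1458218_s_at.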
